A study of Mus musculus with 3 samples.

Results

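RXRA peaks present in multipotent progenitors (MPP), absent from the peak list of haematopoietic stem cells (HSC) and lying at the end of a single protein-coding gene numbered 3655 of the 29848 peaks of MPP replicate 1 (12.2%, 95% exact binomial interval 11.9 to 12.6) and of the 53465 peaks of all 3 libraries. They were chosen by measured values: a peak of MPP replicate 1 had to overlap a peak of MPP replicate 2 by at least 1 bp, overlap no HSC peak, and have its summit within 1000 bp of an end of exactly 1 gene. Their presence in both MPP libraries and absence in HSC is therefore a description and no result. Of 21900 protein-coding genes, 3539 (16.2%) had such a peak, and they are called member genes below.

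MPP, sorted as Lin-cKit+Sca1+CD150-, gave 2 libraries of 50000 cells each, and HSC, sorted as Lin-cKit+Sca1+CD48-CD150+, gave 1 library of 10000 cells. All cells came from bone marrow of C57BL/6 mice of about 10 months, pooled from 3 or 4 animals, and all were exposed for 1 h to the RXR agonist bexarotene, at 1 mM as the labels give it. The genotype label is VavCre+; WT for every library, where Vav drives Cre in blood cells, and the protocol names Rxrabfl/fl (WT) mice, so whether these cells carried both alleles and Cre cannot be told from the labels. CUT&RUN tethers a nuclease to an antibody, here against RXRA, so that DNA near the receptor is cut free and sequenced. Nothing in the labels says whether the MPP libraries came from separate pools of mice. The deposited peak names carry a tag that is the same for MPP replicate 1 and HSC and another for MPP replicate 2, and its meaning is not stated.

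RXRA is a nuclear receptor that binds DNA in pairs with partner receptors such as the vitamin D, liver X, retinoic acid and PPAR receptors. These pairs recognise repeats of a short hexamer, and the spacing of the repeat differs between partners. In blood, RXR is known for roles in stem cells and myeloid cells. MPP lie directly below HSC in the blood hierarchy, and they divide more often than HSC do.

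The promoters of 5 member genes are shown because they had the best ranks by fold in both MPP libraries among peaks whose summit lay within the tabulated promoter. Each runs 5′ to 3′ along the gene, from 250 bases before the start to 50 after it, in RefSeq's GRCm38.p6 table. Capitals mark the receptor hexamers AGGTCA and GGGTCA, the GC box GGGCGG, the ETS core CCGGAAG, the E-box CACGTG and the cyclic AMP response element TGACGTCA, on either strand. The windows are chr5:22550289-22550588 on the minus strand for Orc5, chr15:83099955-83100254 on the plus strand for Serhl, chr2:29935159-29935458 on the plus strand for Gle1, chr5:92435150-92435449 on the minus strand for Nup54 and chr4:45890053-45890352 on the plus strand for Ccdc180.
Orc5: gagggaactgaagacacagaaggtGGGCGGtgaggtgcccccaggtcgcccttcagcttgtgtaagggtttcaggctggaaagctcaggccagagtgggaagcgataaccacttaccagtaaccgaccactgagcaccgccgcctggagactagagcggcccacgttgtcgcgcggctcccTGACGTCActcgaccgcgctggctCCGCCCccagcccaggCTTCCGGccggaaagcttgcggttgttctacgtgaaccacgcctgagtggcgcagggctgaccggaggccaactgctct
Serhl: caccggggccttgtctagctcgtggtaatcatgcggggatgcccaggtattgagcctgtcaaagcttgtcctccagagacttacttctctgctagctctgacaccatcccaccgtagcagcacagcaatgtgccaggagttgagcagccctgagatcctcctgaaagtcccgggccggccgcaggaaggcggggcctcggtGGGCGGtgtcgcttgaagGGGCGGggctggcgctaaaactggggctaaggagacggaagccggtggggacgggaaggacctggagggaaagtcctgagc
Gle1: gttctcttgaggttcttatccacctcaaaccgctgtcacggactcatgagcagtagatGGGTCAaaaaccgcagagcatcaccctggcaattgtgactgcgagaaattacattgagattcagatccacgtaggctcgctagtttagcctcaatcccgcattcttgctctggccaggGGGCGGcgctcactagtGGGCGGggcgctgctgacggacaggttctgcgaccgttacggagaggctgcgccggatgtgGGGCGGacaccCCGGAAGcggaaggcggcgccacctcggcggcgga
Nup54: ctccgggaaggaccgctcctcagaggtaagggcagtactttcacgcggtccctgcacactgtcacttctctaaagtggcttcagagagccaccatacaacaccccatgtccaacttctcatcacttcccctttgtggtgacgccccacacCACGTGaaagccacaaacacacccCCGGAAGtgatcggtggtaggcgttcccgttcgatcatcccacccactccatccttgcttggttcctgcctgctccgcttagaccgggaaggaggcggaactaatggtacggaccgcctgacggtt
Ccdc180: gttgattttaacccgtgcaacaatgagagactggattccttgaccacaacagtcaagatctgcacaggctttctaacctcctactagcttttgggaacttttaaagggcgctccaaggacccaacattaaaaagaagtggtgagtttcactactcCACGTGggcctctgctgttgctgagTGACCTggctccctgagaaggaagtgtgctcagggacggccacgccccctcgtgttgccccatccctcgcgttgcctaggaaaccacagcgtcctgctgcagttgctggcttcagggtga

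A full nuclear receptor repeat was rare, and the 3 members that held one with the summit inside the promoter are shown for that reason. In each the hexamers are repeated with 1 base between them, written AGGTCANAGGTCA with A or G as the first base of either hexamer. The windows are chr9:44418020-44418319 on the minus strand for Ccdc84, chr3:115887933-115888232 on the plus strand for Dph5 and chr6:85431726-85432025 on the plus strand for Smyd5. Capitals are as above, with the CCAAT box added, and in Ccdc84 the ETS core runs into the repeat.
Ccdc84: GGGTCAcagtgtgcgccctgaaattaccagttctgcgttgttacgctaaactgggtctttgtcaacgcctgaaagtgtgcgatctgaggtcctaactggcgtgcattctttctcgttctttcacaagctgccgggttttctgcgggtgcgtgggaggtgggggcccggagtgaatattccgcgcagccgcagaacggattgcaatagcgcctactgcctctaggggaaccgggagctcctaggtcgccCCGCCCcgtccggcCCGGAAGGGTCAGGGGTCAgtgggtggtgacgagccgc
Dph5: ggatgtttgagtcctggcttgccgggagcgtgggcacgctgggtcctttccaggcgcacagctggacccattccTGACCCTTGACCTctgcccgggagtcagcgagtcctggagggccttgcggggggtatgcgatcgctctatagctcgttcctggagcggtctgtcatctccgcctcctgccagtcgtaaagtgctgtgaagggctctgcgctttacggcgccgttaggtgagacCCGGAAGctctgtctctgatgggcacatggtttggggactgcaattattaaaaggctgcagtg
Smyd5: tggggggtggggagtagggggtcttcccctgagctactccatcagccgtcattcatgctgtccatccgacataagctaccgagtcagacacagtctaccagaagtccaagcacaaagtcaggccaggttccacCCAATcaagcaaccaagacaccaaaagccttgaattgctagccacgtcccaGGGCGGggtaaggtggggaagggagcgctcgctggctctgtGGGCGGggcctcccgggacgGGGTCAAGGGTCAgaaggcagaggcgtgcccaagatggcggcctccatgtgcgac

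The highest-ranked member lay at Orc5, part of the origin recognition complex that licenses DNA replication. Its peak, chromosome 5 from 22550217 to 22550574 in mm10, stood 49 fragments high in MPP replicate 1 (95% exact Poisson interval 36.25 to 64.8) and 41 in MPP replicate 2 (29.4 to 55.6). Its fold over local background, as the authors give it, was 12.9 and 16.2, and the nearest HSC peak was 763289 bp away. Its summit lay 1 bp before the gene start in the RefSeq table. The promoter printed above holds an ETS core 29 bases before the start and a cyclic AMP response element 69 bases before it.

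Haus5 and Serhl ranked next, before Gle1 and Nup54. Gle1, an mRNA export factor, had 41 fragments in MPP replicate 1 and 46 in MPP replicate 2, with folds of 10.5 and 17.3, the highest replicate 2 fold of any member. Nup54, a channel nucleoporin of the nuclear pore, had 40 and 41 fragments and folds of 10.2 and 14.2. In both libraries these peaks were far above the median member, which had 21 fragments in the first MPP library and 14 in the other.

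The rest of the 12 best-ranked members lay at genes of several processes. Haus5, an augmin subunit of the mitotic spindle, had 52 fragments in MPP replicate 1 and 28 in MPP replicate 2, with folds of 13.5 and 13.0. Naf1, which assembles H/ACA ribonucleoproteins, had folds of 10.1 and 11.95, and Iqcb1, a cilium protein, had folds of 10.3 and 11.9. Transcription and RNA were represented by Supt5, an elongation factor, at 9.45 and 11.6, and by Snrpc, a subunit of the U1 snRNP, at 9.64 and 11.2. Alkbh3, a demethylase of alkylated nucleic acids, had folds of 9.82 and 11.5. Serhl, Ccdc180 and Zc3h15 completed the group.

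The 4 lowest-ranked members were Gm40367, Gm36327, Hspa1a and Sfi1, and all stood on high local background and not on few fragments. Sfi1, a centrosome protein, had the highest pileups of all members, 90 fragments in MPP replicate 1 and 70 in MPP replicate 2, over local backgrounds of 51.55 and 27.7 fragments. Its folds were therefore only 1.73 and 2.47. Hspa1a, an inducible heat shock protein, had 21 and 17 fragments over local backgrounds of 6.12 and 5.27, and folds of 3.09 and 2.87, near its transcript end.

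Across all 3655 members the fold ran from 1.73 to 13.5 in MPP replicate 1, with a median of 5.17, and from 2.47 to 17.3 in MPP replicate 2, with a median of 6.19. Fold was higher in replicate 2 at 2708 members (74.1%). The whole libraries differed in the same direction, with a median fold of 4.39 over all peaks of MPP replicate 1 and 5.65 over all peaks of MPP replicate 2. Spearman's rho between the libraries was 0.43 over the 3655 peaks, a description of peaks that share 2 libraries and had to be called in both. In the fifth of members with the lowest replicate 1 fold the median replicate 2 fold was 5.32, and in the fifth with the highest it was 7.61.

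**Figure D1:**
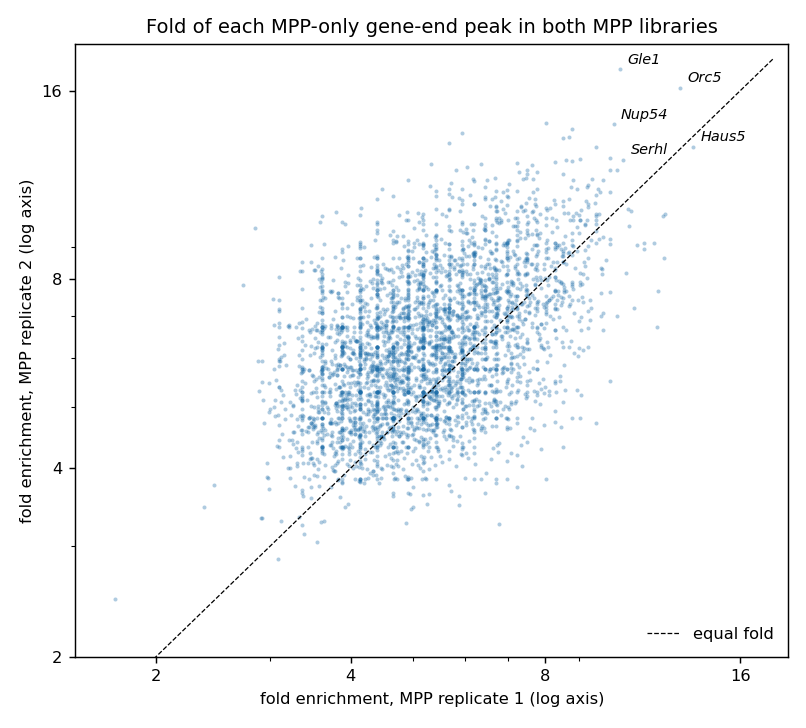
Fold enrichment of each of the 3655 MPP-only gene-end peaks in MPP replicate 1 (x axis, log scale) and MPP replicate 2 (y axis, log scale), 1 point per peak, with the 5 best-ranked genes named and a dashed line of equal fold. Most points (2708) lie above the line, and Orc5, Haus5, Gle1, Nup54 and Serhl stand at the upper right.

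The libraries were matched by overlap of peaks, which had a median width of 336 bp in MPP replicate 1 and 341 bp in MPP replicate 2. Overlap alone keeps summits near each other, so the gaps between them are a description. Summits of the 2 MPP libraries lay a median of 34 bp apart, and 66.6% of members (65.1 to 68.2) had them within 50 bp. The median gap was 59 bp in the fifth of lowest replicate 1 fold and 26 bp in the fifth of highest. Haus5 and Mak16, a ribosome assembly factor, had summits 2 bp apart, while those of Lyl1, a basic helix-loop-helix factor of blood, lay 236 bp apart.

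Absence from the HSC list has to be read beside the depth of that list. The genome-wide background was 2.87 fragments in MPP replicate 1, 1.08 in MPP replicate 2 and 0.604 in HSC, and the lowest pileup that was called was 10, 6 and 5 fragments. The lowest call thus stood 8.28 times above background in HSC. Of the members, 36.3% reached that multiple in MPP replicate 1, 97.05% in MPP replicate 2 and 35.95% (34.4 to 37.5) in both. The 776 single-end peaks of all 3 libraries, which were called in HSC, reached it in 41.75%, 99.4% and 41.6% (38.1 to 45.2), so a peak below that multiple in MPP could still be called in HSC. Cell type, cell number and library depth cannot be told apart here, since HSC has 1 library of fewer cells.

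Members were lower than peaks found in all 3 libraries, by little in MPP replicate 1 and by more in MPP replicate 2. Their median pileup over background was 7.32 and 12.9 in MPP replicates 1 and 2, against 7.67 and 16.6 for the 776 peaks of all 3 libraries at single gene ends. Peaks of all 3 libraries had a median HSC pileup of 9 fragments, or 14.9 times background. Orc5 at its weaker MPP multiple of 17.1 would correspond to 10.3 HSC fragments, Haus5 to 10.9 and Kit to 7.36. In all, 73 members (2.00%) at 72 genes would reach at least 8 fragments, and Sfi1 stood first at 18.9. That limit, chosen after the data were seen, is the 25th percentile of the HSC pileups at peaks of all 3 libraries. It is 13.25 times HSC background, above the 75th percentile of 10.1 that those peaks had in MPP replicate 1. Most peaks of all 3 libraries would thus miss it as well, though they were called in HSC. Conversion to HSC fragments leaves out the local background. At Sfi1 that was 51.55 of the 90 fragments in MPP replicate 1, beside the lowest fold of any member.

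**Figure D2:**
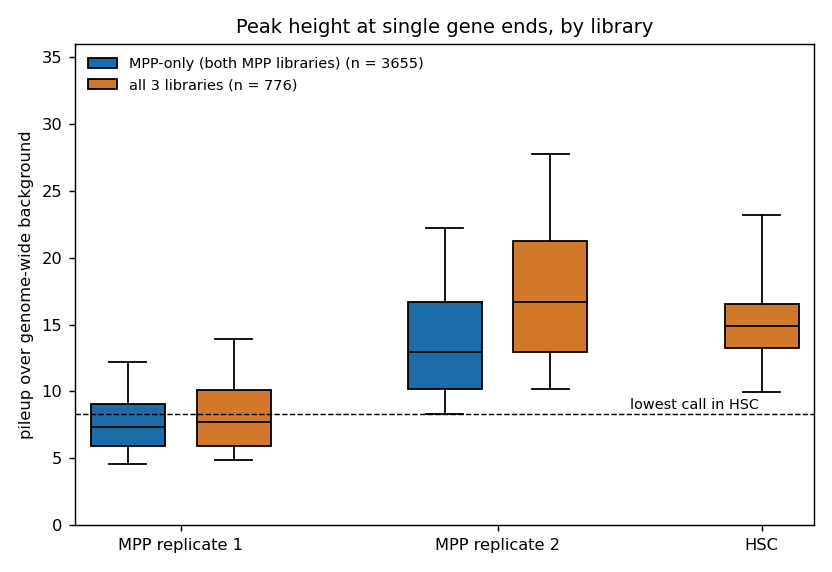
Pileup over genome-wide background (y axis, a ratio) at single gene ends for MPP-only peaks (blue) and peaks of all 3 libraries (orange), by library. Boxes show quartiles and the median, whiskers the 5th and 95th percentiles, and the dashed line the lowest HSC call at 8.28. The blue box lies mostly below the line in MPP replicate 1 and above it in MPP replicate 2.

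Some members lay near HSC signal without touching it. An HSC peak lay within 1000 bp of 55 members, and 80 member genes had an HSC peak at an end. The peak at Mnt, which opposes MYC by binding MAX, lay 19 bp from an HSC peak. That at Apoa2 lay 1296 bp from one, while the median member was 103600 bp from the nearest HSC peak.

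Members sat at gene starts. Where the promoter table gave the strand, 2808 of 2951 members (95.2%, 94.3 to 95.9) lay at the start of the gene and 143 at the end of the transcript, and 704 had no strand. The share at the start was 96.9% (95.3 to 98.1) for peaks of all 3 libraries and 85.9% (84.4 to 87.3) for the 2923 single-end peaks of MPP replicate 1 alone. Summits were centred on the start with a median 5 bp downstream, and 57.2% (55.3 to 59.0) lay within 100 bp of it, against 55.2% for peaks of all 3 libraries and 39.0% for peaks of MPP replicate 1 alone. Hlf, a stem cell transcription factor, had its summit at the gene start itself.

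At transcript ends no such centre was seen. Members there included Bax, a pore-forming protein of apoptosis, with 35 fragments in replicate 1 and 31 in replicate 2 of MPP, and Mthfd1, an enzyme of folate metabolism, with 30 and 28. Both were named after their values were seen. At the edge of the window, Yes1 and Lhfpl4 lay 993 and 997 bp from an end and were members, while Tyrobp and Ski lay 1002 and 1003 bp away and were not. The replicate 1 folds were 6.08 and 5.35 just inside and 3.94 and 4.41 just outside, and the replicate 2 folds were 7.002 and 5.22 just inside and 7.46 and 5.16 just outside.

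**Figure D3:**
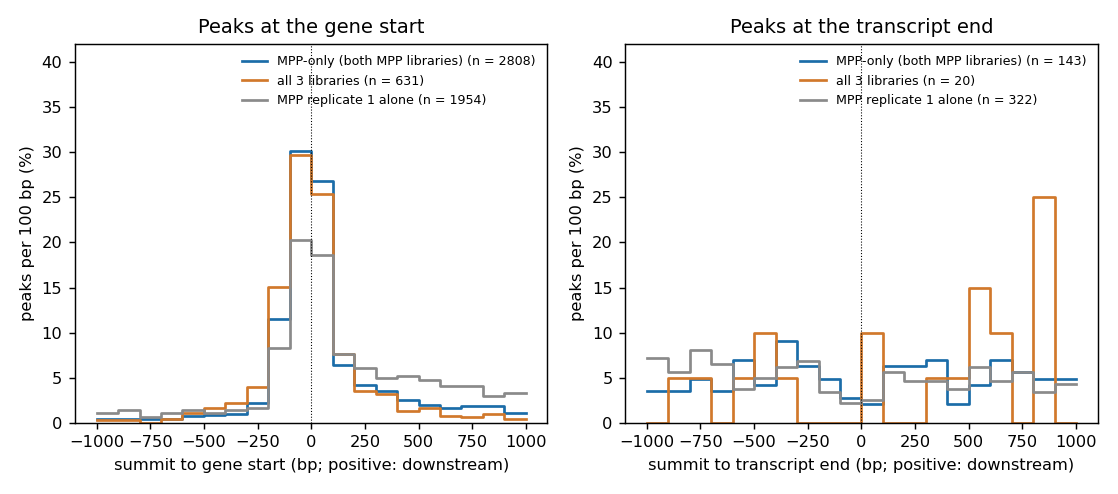
Distance from the summit to the gene start (left) or transcript end (right), in bp on the x axis, with the percent of each class per 100 bp on the y axis. MPP-only peaks (blue) and peaks of all 3 libraries (orange) form a narrow peak at the start, peaks of MPP replicate 1 alone (grey) a lower one, and none is centred on the transcript end, where only 20 peaks of all 3 libraries lie.

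The promoters at members were rich in G, C and CpG. The median GC content was 61.3% over the 2672 promoters with sequence, against 61.7% for peaks of all 3 libraries and 50.0% for genes with no peak at an end. A CpG content of at least 0.6 of that expected from base composition was found in 77.4% of member promoters (75.7 to 78.9), against 85.3%, 68.7% for peaks of MPP replicate 1 alone and 24.7% for genes with no peak. Intervals cover counting error only.

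The receptor hexamer AGGTCA was less frequent at members than over all promoters. AGGTCA occurred in 11.3% of member promoters (10.1 to 12.6), against 10.8% for peaks of all 3 libraries, 17.0% for genes with no peak and 14.5% (13.9 to 15.0) for all 17492 coding genes in the table. GGGTCA occurred in 13.8% (12.6 to 15.2), against 13.4% of all coding genes. A direct repeat with 0 to 5 bases between the hexamers was found in 6 of the 2672 member promoters (0.225%, 0.0825 to 0.488) and in 0.286% of all promoters. The 3 printed above, at Ccdc84, Dph5 and Smyd5, are among these 6. An absence says only that the letters searched are not in this window of 300 bases.

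The letters of several other promoter motifs were more frequent at members. The GC box was present in 70.2% of member promoters (68.5 to 72.0), against 46.3% of all coding genes, and the ETS core in 21.3% (19.7 to 22.9) against 11.9% (11.4 to 12.4). The motif GCGCNNGCGC of NRF1, a factor of respiratory and housekeeping genes, stood at 14.5% against 8.87%, the cyclic AMP response element at 4.57% against 2.33%, and the E-box that MYC and MAX bind at 11.7% against 7.91%. TATAAA was less frequent at 6.59% against 13.3%, and AGATAA, a letter string of GATA factors, at 5.24% against 9.94%. The CCAAT box at 38.0% against 39.2% and TGTGGT of RUNX factors at 14.6% against 15.1% were close to the level of all promoters. These shares were not particular to members. At peaks of all 3 libraries the GC box stood at 71.45% (67.6 to 75.1) and the ETS core at 23.0% (19.6 to 26.6). The cyclic AMP response element stood there at 5.41% and the E-box at 11.15%.

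Base composition moved with several of these shares, so they were also taken among promoters with a CpG ratio of at least 0.6, a split chosen after the data were seen. There the ETS core was present in 23.4% of member promoters (21.6 to 25.2) against 11.8% (10.5 to 13.2) for genes with no peak, and the cyclic AMP response element in 5.08% against 2.55%. NRF1 stood at 17.8% (16.2 to 19.5) against 16.7% (15.2 to 18.3), the E-box at 13.0% (11.5 to 14.5) against 11.2% (9.95 to 12.6), and AGGTCA at 9.72% (8.48 to 11.1) against 8.81% (7.67 to 10.1), with overlapping intervals. TATAAA stood at 6.19% (5.19 to 7.32) against 6.49% (5.50 to 7.59), also with overlapping intervals. The GC box stood at 76.4% against 71.7%. Promoters at peaks of all 3 libraries, under the same split, were like those of members. They held the ETS core in 24.4% (20.7 to 28.3), the cyclic AMP response element in 5.94% and the GC box in 76.0%.

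ETS cores were densest in the 25 bases before the start, at 58.8 per 1000 member promoters against 29.2 for all promoters, and in the 25 bases after it, at 53.5 against 27.8. AGGTCA showed no such rise, with 8.23 and 7.11 per 1000 in the same intervals. Distances to the summit were taken among the 1964 members with the summit inside the promoter, where each motif was present. The nearest GC box lay a median of 33 bp away, the nearest ETS core 56 bp, the nearest CCAAT box 56 bp and the nearest AGGTCA 79 bp. Such distances also depend on how many matches there are and where. GC boxes stood at 254 per 1000 member promoters in the 25 bases before the start.

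**Figure D4:**
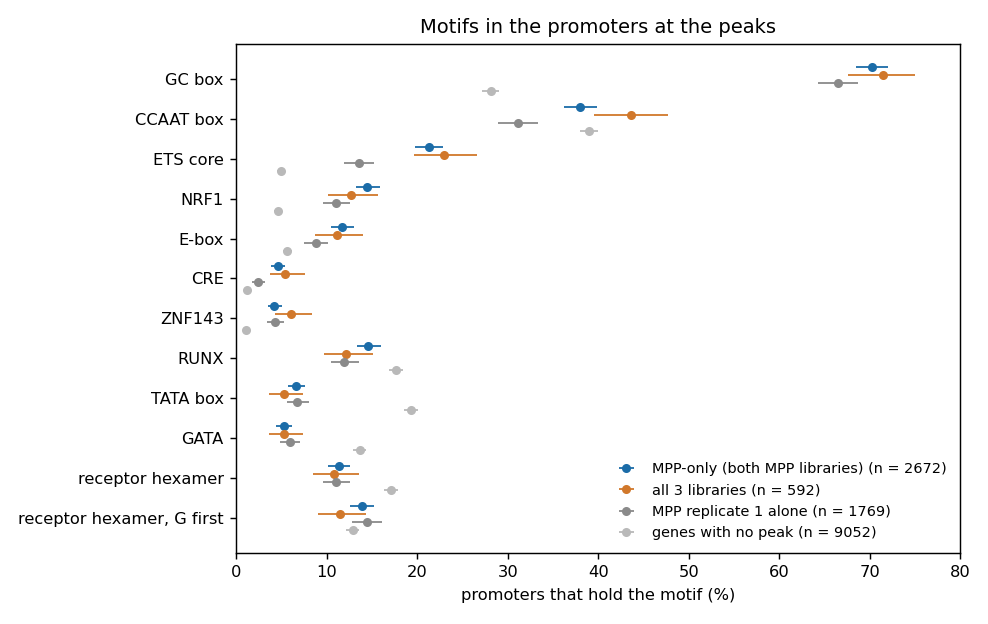
Percent of promoters that hold each motif (x axis), by motif (rows), for MPP-only peaks (blue), peaks of all 3 libraries (orange), peaks of MPP replicate 1 alone (dark grey) and genes with no peak (light grey), with 95% exact binomial intervals for counting error. The GC box and ETS core are higher at all 3 peak classes than at genes with no peak, while AGGTCA is lower.

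Genes of basic cell machinery held many members, read against the 16.2% of all protein-coding genes. That base includes the 52.6% of genes with no peak at an end in any library. Cytosolic ribosomal protein genes had members at 30 of 76 (39.5%, 28.4 to 51.4) and pre-mRNA splicing genes at 25 of 64 (39.1%). RNA polymerase, Mediator and general factor genes had them at 35 of 90 (38.9%) and nuclear pore and transport genes at 22 of 57 (38.6%). In the same order, only 7, 5, 12 and 10 genes of these lists had no peak. Peaks of all 3 libraries, with no MPP-only one, lay at 10, 10, 11 and 6 of their genes, where 4.75% of all genes had one. High shares in these lists were thus not particular to MPP-only peaks. Median folds in the ribosomal list were 4.78 in MPP replicate 1, below the 5.17 of all members, and 6.41 in MPP replicate 2, above the 6.19 of all members. Rps9 led that list with 39 fragments in replicate 1 and 33 in replicate 2 of MPP, and folds of 9.28 and 9.94. Ppih, a cyclophilin of the spliceosome, had folds of 9.21 and 8.41, and Gtf2b, which places RNA polymerase II at promoters, had 6.72 and 9.89.

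Translation and protein turnover were similar in part. Members lay at 24 of 73 ribosome assembly genes (32.9%), 11 of 36 aminoacyl-tRNA synthetase genes (30.6%) and 16 of 47 proteasome genes (34.0%). In the same order, 15, 6 and 4 genes of these lists had a peak of all 3 libraries and no MPP-only one, where 4.75% of all genes did. Gnl2, a nucleolar GTPase, had folds of 9.01 and 9.47, and Psmd12, a subunit of the proteasome lid, had 8.69 and 13.5. Sars, the seryl-tRNA synthetase, stood at 8.83 and 7.72. Mitochondrial ribosomal protein genes held members at only 15 of 77 (19.5%), near the background, and 17 more had an MPP-only peak shared with a neighbouring gene, where 6.00% of all genes did. Oxidative phosphorylation genes lay between, with 21 of 75 (28.0%), among them Uqcrfs1, the Rieske protein of complex III, at 8.93 and 10.2.

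Cell division and DNA repair lists were also above the background. Members lay at 23 of 63 DNA damage response genes (36.5%), 20 of 60 spindle and kinetochore genes (33.3%) and 12 of 45 replication genes (26.7%, 14.6 to 41.9, an interval that holds 16.2%). Msh6, a mismatch recognition protein, had folds of 7.75 and 9.46. Cenpw, a kinetochore protein, had 36 fragments in replicate 1 and 21 in replicate 2 of MPP, and Rfc4, a clamp loader subunit, had folds of 8.01 and 10.4. A further 9 replication genes had a peak of all 3 libraries and no MPP-only one, where 4.75% of all genes did.

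Lysosome and autophagy genes held members at 25 of 65 (38.5%), interferon and inflammatory genes at 17 of 49 (34.7%) and primary cilium genes at 18 of 59 (30.5%). Of all protein-coding genes, 16.2% were member genes. In the same order, 5, 6 and 10 genes of these lists had a peak of all 3 libraries and no MPP-only one. Of all genes, 4.75% had one, so high shares here were not particular to MPP-only peaks. Becn1, which starts autophagosome formation, had folds of 8.78 and 7.81. Usp18, which restrains interferon signalling, had 8.96 and 11.1, while Tlr4, the endotoxin receptor, had 5.43 and 9.81. Bbs7 and Bbs9, subunits of the BBSome of cilia, stood at 7.85 and 8.06 and at 7.75 and 7.36.

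Stem cell regulators held members at 11 of 51 (21.6%, 11.3 to 35.3), an interval that holds the background. Of the 51, 29 had no peak at an end, where 52.6% of all protein-coding genes had none. Meis1, a homeodomain factor of stem cell self-renewal, had 29 fragments in replicate 1 and 24 in replicate 2 of MPP, and folds of 6.03 and 8.73. Kit, the stem cell factor receptor by which these cells were sorted, had 35 and 14 fragments and folds of 6.68 and 5.12. Tal1, a master regulator of blood formation, differed most between the MPP libraries among these genes, with folds of 4.74 and 10.2. Hlf had 28 and 15 fragments, Foxo1, a factor of quiescence, 32 and 16, and Lyl1 30 and 25. Mllt3, Cdkn1b, Gfi1b, Ctnnal1 and Nr4a1 had replicate 1 folds between 2.91 and 4.82.

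Markers of the sorted cells and of other blood cells show only where peaks lie, since a peak does not measure expression. Among HSC markers Hlf was a member gene, while Mecom, Procr, Slamf1 and Fgd5 had no peak at an end in any of the 3 libraries. Flt3, a receptor of MPP, had 35 fragments in replicate 1 and 18 in replicate 2 of MPP, and Cd48 and Cd34 had a peak in MPP replicate 1 alone. Itga2b, of the megakaryocyte lineage, was a member gene with folds of 4.55 and 4.04. None of the 3 myeloid, 3 lymphoid and 4 non-blood markers was. In the longer list of non-blood tissue genes, 2 of 54 (3.70%) were member genes, Ckm and Apoa2, and 1.85% with a window of 500 bp.

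Nuclear receptor genes themselves held members at 8 of 45 (17.8%, 8.0 to 32.05), near the background, and at 11.1% with a window of 500 bp. Vdr, the vitamin D receptor, had 36 fragments in replicate 1 and 22 in replicate 2 of MPP, and folds of 7.75 and 8.08. Nr1h2, the liver X receptor beta, had 35 and 19 fragments and folds of 8.03 and 7.32, and an HSC peak lay 4737 bp away. Ppard, a PPAR, had folds of 3.46 and 6.59, and Nr1d1 and Nr1d2, the REV-ERB receptors of the clock, had 3.55 and 3.88 and 3.83 and 5.87. Esr1, the oestrogen receptor alpha, had 5.17 and 4.45. Coregulator genes held members at 6 of 24 (25%, 9.77 to 46.7), an interval that holds the 16.2% of all protein-coding genes. Their share was 20.8% with a window of 500 bp and 16.7% with 2 kb. Ncoa3, a coactivator, led this list with folds of 7.05 and 6.50.

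Among lipid genes that RXR partners are known to control, members lay at 5 of 47 (10.6%, 3.55 to 23.1, an interval that holds 16.2%; 6.38% with a window of 500 bp), and 5 more had a peak of all 3 libraries and no MPP-only one. The members included Cpt1a, which commits fatty acids to oxidation, with 28 fragments in each MPP library. Plin2, a lipid droplet protein, had 16 in replicate 1 and 14 in replicate 2 of MPP. The MYC network had members at 2 of 20 genes (10.0%, 1.24 to 31.7, an interval that holds 16.2%), and 5.0% with a window of 500 bp. Mxd3, a MAX partner, had 37 and 13 fragments and folds of 7.09 and 5.07, and Mnt had 24 and 18 fragments and folds of 4.45 and 4.00.

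Chromatin modifier genes held members at 14 of 66 (21.2%, 12.1 to 33.0). Kdm1a, a histone demethylase, had folds of 8.40 and 6.98, and Rnf2, a ubiquitin ligase of Polycomb complexes, had 4.70 and 6.88. Progenitor, myeloid and lymphoid markers had members at 10 of 37 (27.0%, 13.8 to 44.1), where Notch1, a receptor of lymphoid fate, had 41 fragments in MPP replicate 1 and 25 in MPP replicate 2. Id3, an inhibitor of E proteins, had the same values of 41 and 25. Erythroid and megakaryocyte markers had 3 of 24 (12.5%, 2.66 to 32.4), and 20.8% with a window of 2 kb. The intervals of all lists in this paragraph hold the 16.2% of all protein-coding genes.

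**Figure D5:**
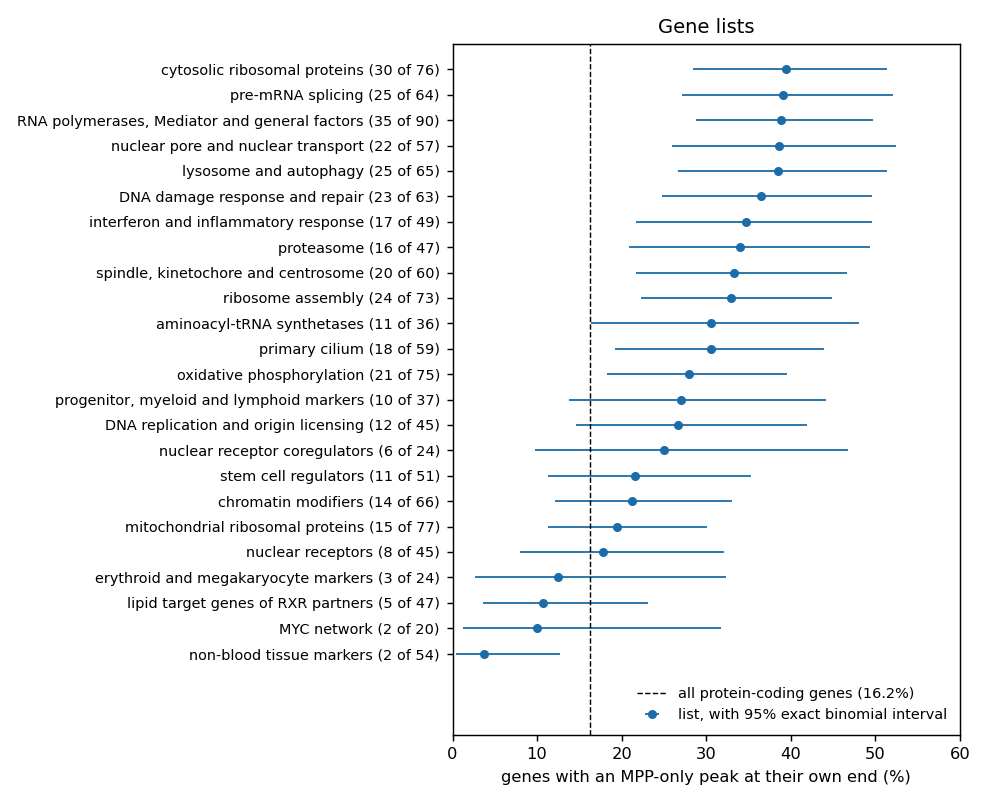
Percent of the genes of each of 24 lists with an MPP-only peak at their own end (x axis), with 95% exact binomial intervals for counting error, and the 16.2% of all protein-coding genes as a dashed line. Cytosolic ribosomal protein genes stand highest at 39.5% and non-blood tissue markers lowest at 3.70%.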

How the data were processed

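RXRA CUT&RUN was analysed in 2 MPP libraries and 1 HSC library, with peaks called per library. The submitters' processing notes name the mm10 build, MACS2 (version 2.1.4), Bowtie2 (version 2.3.4.1), Trim Galore (version 0.4.2) and cutadapt (version 1.9.1). How these were set, and any control library, is not given in the sources used here. Fold, as deposited, is a ratio, the pileup over the local background, each plus 1. The authors' −log10 p and −log10 q values were not changed, and the deposited score column was not used.

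Fold and p were solved for a whole pileup and a background with scipy 1.17.1, to within 0.001 in −log10 p, which succeeded for 100% of the peaks in MPP replicate 1, 99.99% in MPP replicate 2 and 99.98% in HSC. The lowest background in a list is its genome-wide background. Overlaps were checked with bedtools 2.31.1, and scripts were tested on simulated data. RefSeq's promoter table gave strand for 17492 of 21900 coding genes. Exons, introns and the sequence under peaks away from promoters were not used here.

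Members, the 24 gene lists (1294 of 1301 genes found) and the naming rule were chosen with earlier results of these data known. Named genes are the 12 best and 4 worst by the worse of their ranks by fold in the MPP libraries, up to 4 per list by that rank, all members of the stem cell, nuclear receptor and MYC lists, and those beside the 1000 bp limit. Where a member overlapped several replicate 2 peaks (19 members), the highest fold was used. With 1 HSC library no test was made. Intervals are 95% exact binomial or Poisson and cover counting error only. Alternatives changed the overlap, the window, the q limit, the list length, the gap to HSC peaks and the libraries used. Some genes that the naming rule gives are not reported here.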

Additional observations from a re-analysis of the deposited data

How the results depend on the processing

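The 3655 peaks and 3539 genes stayed within 1.5 times under an overlap of 50% of the shorter peak, no HSC peak within 1 kb, windows of 500 bp and 2 kb, a q of 0.01, and replicate 2 peaks in place of replicate 1. A q of 1e-05 in the MPP libraries left 2115 peaks at 2092 genes. Holding the MPP lists to the HSC length left 552 peaks at 552 genes, with a median fold of 7.42 and 97.7% at the gene start. That share was 97.0% with a window of 500 bp and 92.8% with 2 kb. Leaving out 1 MPP library gave 4785 to 6578 peaks, 4569 to 6004 genes and 91.1% to 94.6% at the start. The upper counts and the lower share are without MPP replicate 2, where the median fold was 4.65. The share above the lowest HSC call was 35.95% in both MPP libraries, 36.3% in replicate 1 alone and 97.05% in replicate 2 alone. All 48 list shares recomputed with windows of 500 bp and 2 kb stayed within their counting intervals, which are wide for small lists. Those of 5 lists moved by over 1.5 times: at 500 bp nuclear receptors to 11.1%, lipid targets to 6.38%, the MYC network to 5.0% and non-blood markers to 1.85%, and at 2 kb erythroid and megakaryocyte markers to 20.8%. Of 20 motif shares, taken again over members with the summit inside the promoter, 16 stayed within that interval, the GC box moved to 73.6% and the ETS core to 23.4%, and repeats with 0 or 2 bases between hexamers were not found. No paired analysis was possible because HSC has 1 library and no result comes from a test. Low HSC depth limits what an absent peak can show.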

Other observations

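Member genes were spread over the autosomes, with shares of coding genes from 12.2% on chromosome 7 to 19.8% on chromosome 8. Few lay on chromosome X, where 35 of 966 coding genes (3.62%) were member genes. There 79.9% had no peak at an end, against 52.6% of all coding genes. At single gene ends, X held 0.958% of members, 1.03% of peaks of all 3 libraries and 1.81% of peaks of MPP replicate 1 alone. Peaks on X made up 0.962% of MPP replicate 1, 1.34% of MPP replicate 2 and 1.43% of HSC.

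Gene families named by symbol prefix, all chosen after their values were seen, differed widely around the 16.2% of all protein-coding genes. Near that share were Slc solute carrier genes, at 60 of 389 (15.4%), and Tmem transmembrane protein genes, at 42 of 238 (17.65%). Members lay at 112 of 400 Zfp zinc finger genes (28.0%, 23.65 to 32.7), 21 of 56 Eif translation initiation factor genes (37.5%) and 26 of 78 Rab genes of membrane traffic (33.3%). Among 1110 Olfr olfactory receptor genes the only one was Olfr1509, and 0 of 355 vomeronasal receptor genes and 0 of 111 keratin genes had a member. Hoxa11 was the only 1 of 39 Hox genes. In the same order, 1106, 352, 103 and 35 genes of these families had no peak at an end in any library. Their low shares were thus not particular to members. Member genes had a median length of 23020 bp, against 20999 bp for genes with a peak of all 3 libraries, 22375.5 bp for genes with another peak and 12589 bp for genes with no peak.

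An end of a long non-coding RNA gene also lay within 1000 bp of 431 members (11.8%, 10.8 to 12.9), against 15.3% (12.9 to 18.1) of peaks of all 3 libraries. At 114 genes there were 2 or more members, with 3 each at Fut7 and Nsmce4a, and 38 genes had members at both ends.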
